A study of Mus musculus with 12 samples.

Results

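Plekhb1, Grid1, Tmie and Ntrk2 are 4 of the 53465 genes in a table of RNA-seq read counts from mouse liver. They were chosen from their own levels, as genes better known from nervous or sensory tissue that stood higher at 12 months than at 3 months and were still higher at 18 months. The differences between ages, their intervals and the DESeq2 calls given below for the 4 genes therefore describe the values that chose them, and no p is printed for them between ages. The livers came from C57BL/6N mice aged 3, 12 or 18 months, called young, middle-aged and aged, and each age had 4 libraries, each labelled as 1 animal, although the series' design text speaks of 3 replicates for an age. No genetic change or treatment was given for any group, and the study's methods describe its mice as male. All 4 genes had counts in all 12 livers.

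Plekhb1 encodes a membrane-associated protein with a pleckstrin homology domain that was characterised in photoreceptors and brain. Grid1 encodes the delta-type glutamate receptor GluD1, a synaptic organiser that binds cerebellins and, through them, neurexins. Tmie encodes a small transmembrane protein of the channel complex with which inner ear hair cells sense sound. Ntrk2 encodes TrkB, the receptor tyrosine kinase for the neurotrophins BDNF and NT-4, which signals through Ras and MAP kinases, PI3 kinase and phospholipase C gamma. In liver, neurotrophin receptors are known mainly from stellate cells and nerve fibres.

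In GRCm38, Plekhb1 (ENSMUSG00000030701) lies at chr7:100642892-100662414 on the minus strand, with 3713 exonic bases and 12 annotated transcripts. Grid1 (ENSMUSG00000041078) lies at chr14:34820108-35583379 on the plus strand, and only 0.781% of that span is exonic (5962 bases). Tmie (ENSMUSG00000049555) lies at chr9:110865711-110880113 on the minus strand, with 3094 exonic bases. Ntrk2 (ENSMUSG00000055254) lies at chr13:58806569-59133970 on the plus strand, with 19292 exonic bases over 10 transcripts, of which 7 are annotated as protein-coding. The count of a gene sums its transcripts. This matters most for Ntrk2, whose products range from 466 to 821 residues and include forms without the kinase domain.

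The coding ends of the kinase-bearing and of a truncated Ntrk2 form are shown because their reads enter the same gene count. Both share their first 1394 coding bases, the last of them printed in lower case, and the capitals mark where they part. The truncated form (Ntrk2-204, 476 residues) ends with 37 coding bases of its own. The longest form (Ntrk2-207, 821 residues) is shown for its next 36 bases only. The sequences are from the GENCODE M21 transcripts.
Ntrk2 truncated: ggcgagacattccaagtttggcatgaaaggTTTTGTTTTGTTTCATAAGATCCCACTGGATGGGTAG
Ntrk2 kinase-bearing: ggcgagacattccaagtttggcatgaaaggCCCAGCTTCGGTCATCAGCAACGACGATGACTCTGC
The ratio of these forms was not measured by the gene counts, so every Ntrk2 level below is a sum over receptor and truncated receptor.

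Bases upstream of Plekhb1 and Ntrk2 are shown as a description. The choice of the 4 genes fixed that they rose together between ages. With the age means removed, their correlations with each other were -0.674 (Grid1 with Ntrk2) to 0.451 (Plekhb1 with Ntrk2). RefSeq promoter windows on GRCm38.p6 were found for 3 of the 4 genes, with 2 windows for Plekhb1 and 1 each for Tmie and Ntrk2. For Plekhb1 the window of the start farther upstream is shown. Only bases outside annotated exons are printed, at chr7:100662415-100662644 on the minus strand for Plekhb1 and at chr13:58806319-58806568 on the plus strand for Ntrk2, each 5′ to 3′ in the direction of its gene.
Plekhb1 upstream: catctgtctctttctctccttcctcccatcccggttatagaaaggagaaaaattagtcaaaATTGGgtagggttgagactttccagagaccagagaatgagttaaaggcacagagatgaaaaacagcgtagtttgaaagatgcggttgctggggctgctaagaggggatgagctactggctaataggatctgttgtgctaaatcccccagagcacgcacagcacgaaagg
Ntrk2 upstream: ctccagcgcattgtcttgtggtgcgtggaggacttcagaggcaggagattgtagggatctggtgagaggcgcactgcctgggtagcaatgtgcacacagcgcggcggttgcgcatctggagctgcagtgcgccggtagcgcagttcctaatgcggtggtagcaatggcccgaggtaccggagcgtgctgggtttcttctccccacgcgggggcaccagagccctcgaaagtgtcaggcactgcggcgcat
Capitals mark matches to 7 motifs searched on both strands of the 250 bases before each start: the E-box CACGTG, the D-box TTATGTAA, the STAT5 and BCL6 palindrome TTCNNNGAA, the CRE TGACGTCA, the GC box GGGCGG, the NF-Y box CCAAT, and TATAAA for the TATA box. One NF-Y box on the opposite strand, read as ATTGG in the printed bases, was the only match in the Plekhb1 window shown. The other Plekhb1 window, before a start at position 100656965 of the chromosome, also held 1 NF-Y box and no other match, and 33.9% of 32851 promoters of this length hold this motif. Ntrk2 had no match, and 62.8% of its bases were G or C against a median of 52.4% over all promoters. Tmie had 3 GC boxes, a motif held by 32.7% of promoters. Its window lies in exons of Als2cl, which starts on the opposite strand, and is not printed. No motif among those searched was held by all 3 genes.

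Counts assigned to genes ranged from 8124312 to 10527159 a library, and p-values measure only the spread between these livers. Young replicate 3 and middle-aged replicate 1 had 22284 and 19982 genes with at least 1 count, against 16361 to 17563 in the other 10 libraries, and a young library (replicate 2) had 19.2% mitochondrial counts against 5.48 to 10.7% elsewhere. The synthetic spike-in RNAs fell into 2 sets with different proportions, replicates 1 and 2 of each age against replicates 3 and 4. Summed hepatocyte markers stood at 792781 to 1048478 normalised counts in every liver, and summed neuron markers at 121.0 to 269.6, so the labelled tissue was borne out by its markers. Normalised counts are raw counts divided by a DESeq2 size factor for each library.

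Plekhb1 stood at a similar level in both older ages, and among young livers it had the lowest coefficient of variation of the 4 genes (16.6%). Its normalised counts in young livers were 183.6, 131.2, 160.0 and 193.3 for replicates 1 to 4. In middle-aged livers they were 425.0, 369.0, 409.7 and 366.8. In aged livers they were 339.2, 388.2, 470.2 and 449.6. The lowest of the 8 older livers stood 145.9 normalised counts above the highest young liver, while middle-aged and aged livers overlapped fully. The means were 167.0 ± 27.7, 392.6 ± 29.2 and 411.8 ± 59.6 (SD, n = 4 each). The fold over young was 2.34 at 12 months (log2 1.23, SE 0.15) and 2.46 at 18 months (log2 1.30, SE 0.15), and both older ages differed by 0.07 (SE 0.14) on the log2 scale.

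Grid1 was low in young liver and several-fold higher later. Its raw counts in the 4 young libraries were 7 to 17, above the 3 counts taken as the detection floor. Normalised counts were 18.0, 12.7, 8.3 and 8.8 in young livers and 57.6, 55.7, 50.3 and 50.1 in middle-aged livers. In aged livers they were 46.2, 74.2, 62.0 and 59.0. The young and older livers were separated by a gap of 28.1 normalised counts, and the 4 middle-aged livers lay between 50.1 and 57.6, inside the aged range. The means were 11.97 ± 4.51, 53.4 ± 3.78 and 60.3 ± 11.5 (SD, n = 4 each). The fold over young was 4.47 at 12 months (log2 2.16, SE 0.31) and 5.05 at 18 months (log2 2.34, SE 0.31), and aged against middle-aged differed by 0.18 (SE 0.23) on the log2 scale. Among young livers the coefficient of variation was 37.7%, close to the 30.5% that counting error alone gives at this depth.

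Tmie was the gene of the 4 whose level was ordered across all 3 ages without overlap. That order describes the values that chose the gene, and the share of all genes ordered in this way was not counted. Young livers held 287.7, 208.9, 310.4 and 220.6 normalised counts. Middle-aged livers held 454.7, 426.5, 353.2 and 366.8. Aged livers held 461.6, 574.1, 554.1 and 567.6. Aged replicate 1 came within 6.9 normalised counts of the highest middle-aged liver, and the other aged livers stood well apart. The means were 256.9 ± 49.8, 400.3 ± 48.3 and 539.4 ± 52.5 (SD, n = 4 each). The fold over young was 1.56 at 12 months (log2 0.64, SE 0.15) and 2.10 at 18 months (log2 1.07, SE 0.15). The further step from 12 to 18 months was 0.43 (SE 0.14, 95% interval 0.15 to 0.71) on the log2 scale. Leaving out 1 liver gave 0.37 to 0.50, with 0.50 (SE 0.15) without aged replicate 1. In replicates 1 and 2 the mean went from 440.6 at 12 months to 517.9 at 18 months, and in replicates 3 and 4 from 360.0 to 560.8.

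Ntrk2 was the most variable of the 4 genes. Young livers held 4.2, 5.1, 34.4 and 38.1 normalised counts, the lower pair resting on 4 raw counts each. Middle-aged livers held 59.6, 112.2, 122.7 and 53.1, and aged livers held 56.2, 53.9, 146.8 and 98.3. Every older liver stood above every young liver, by at least 15.0 normalised counts, and within each age the highest liver was at least 2.31 times the lowest. The means were 20.4 ± 18.3, 86.9 ± 35.7 and 88.8 ± 43.7 (SD, n = 4 each). The fold over young was 4.23 at 12 months (log2 2.08, SE 0.57) and 4.33 at 18 months (log2 2.11, SE 0.57), with a 95% interval of 0.96 to 3.20 on the log2 scale for the former. Aged and middle-aged livers differed by 0.03 (SE 0.55) on the log2 scale. The coefficient of variation among young livers was 89.4%, against 22.9% from counting error.

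**Figure D1:**
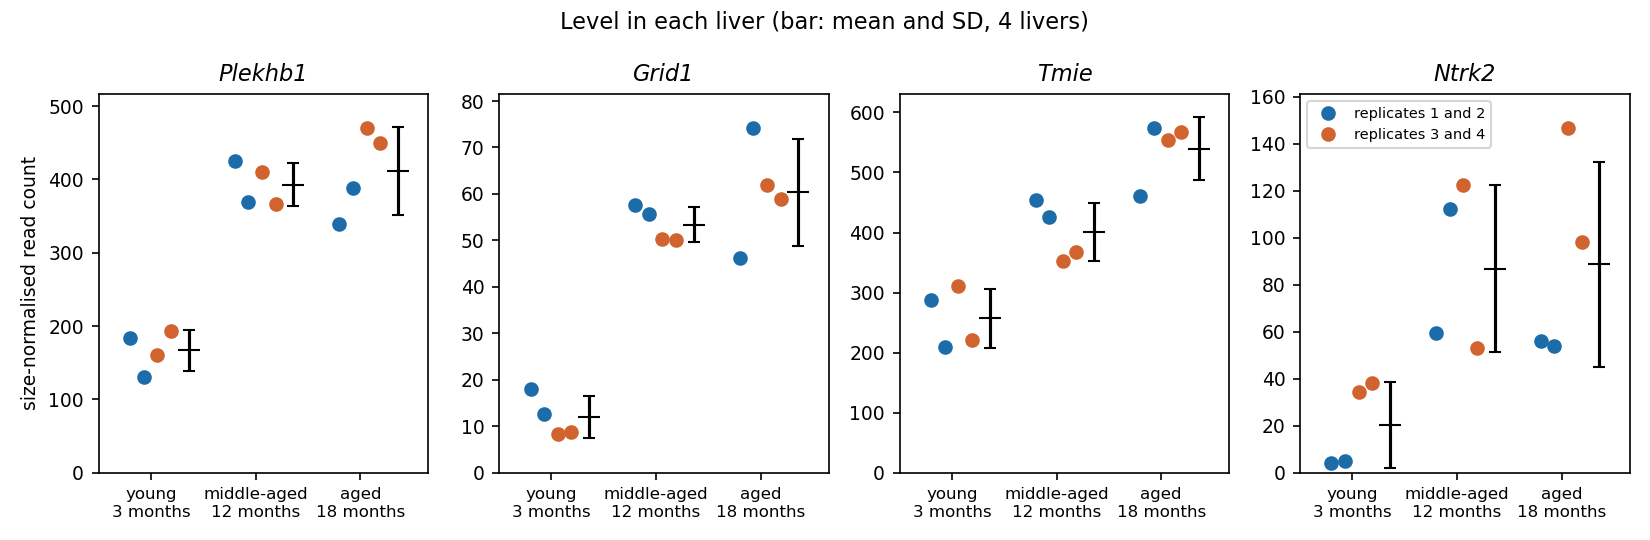
Size-normalised read count (vertical axis, from 0) of the 4 genes in each of 12 livers by age (horizontal axis), with black bars for the mean and SD of 4 livers. Points are blue for replicates 1 and 2 and orange for replicates 3 and 4, which carry different spike-in sets; every older liver lies above every young liver for each gene, and the young Ntrk2 points split into a low blue pair (4.2 and 5.1) and a higher orange pair (34.4 and 38.1).

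All 4 genes passed the DESeq2 threshold of adjusted p under 0.05 as higher in middle-aged than in young livers, where 6.41% of 11333 tested genes were called in either direction and 3.51% as higher. All 4 also passed in aged against young livers, where 3.58% of 13527 tested genes were called and 1.87% as higher. None passed in aged against middle-aged livers, where 1.14% of 10236 tested genes were called. Tmie passed there in 3 of 25 alternative fits, namely without aged replicate 1, with unfiltered edgeR and with limma voom. Of 11804 genes averaging 10 or more normalised counts, 1.86% had all 8 older livers above all 4 young livers, as the 4 genes did. Nothing is read from these counts, because the same contrasts chose the genes. Between young and middle-aged livers 22 genes tested had a larger rise than Grid1, 23 than Ntrk2, 78 than Plekhb1 and 427 than Tmie.

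**Figure D2:**
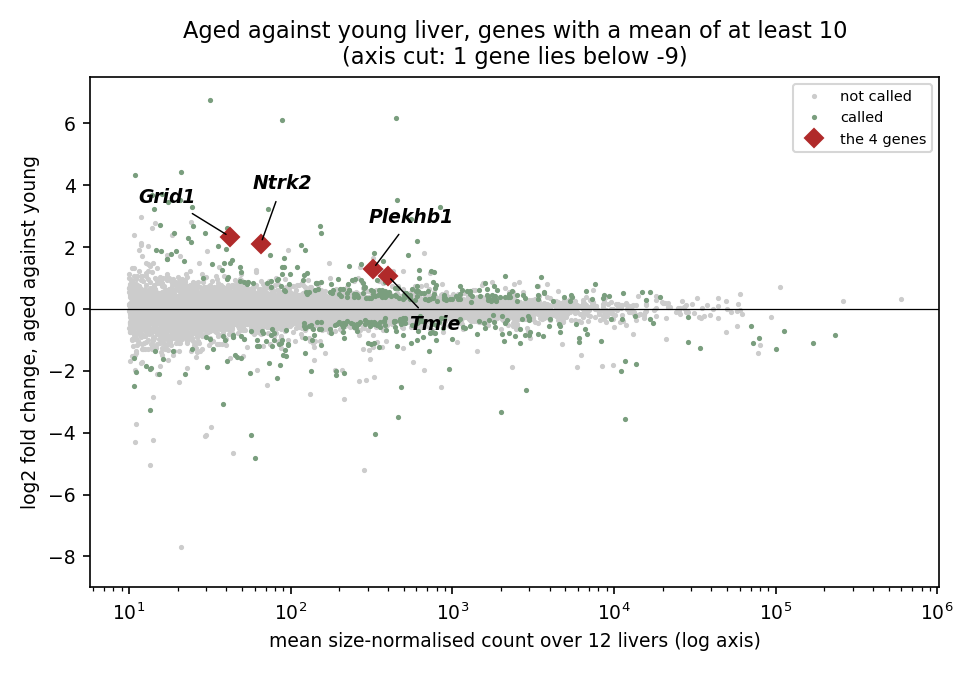
Log2 fold change of aged against young livers (vertical axis) against the mean size-normalised count over the 12 livers (horizontal log axis) for genes averaging 10 or more; green points were called at adjusted p under 0.05 and grey points were not, and 1 gene below −9 is off the axis. The 4 genes (red diamonds) lie at log2 1.07 (Tmie), 1.30 (Plekhb1), 2.11 (Ntrk2) and 2.34 (Grid1).

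Per kilobase of exon the order of the 4 genes was the same at every age by mean. In aged livers the means were 174.3 ± 17.0 normalised counts per kb for Tmie, 110.9 ± 16.1 for Plekhb1, 10.1 ± 1.93 for Grid1 and 4.60 ± 2.26 for Ntrk2 (SD, n = 4 each). Grid1 and Ntrk2 overlapped among young livers, and Tmie and Plekhb1 overlapped among middle-aged livers. Averaged over the 12 livers, 8.34% of genes with counts stood above Tmie per kb, 11.1% above Plekhb1, 35.7% above Grid1 and 41.6% above Ntrk2. The level of Ntrk2 per kb depends on its long annotated exons, since only 0.847% of genes averaging 10 or more had more exonic bases.

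Whether the 4 genes followed the 2 spike-in sets was tested across all genes, a contrast the choice of genes did not use. With age and set in the DESeq2 model, 0.361% of 14108 tested genes differed between sets, and 1.6% of 11351 tested genes had an age difference that depended on the set. Ntrk2 was 1.17 (SE 0.38) higher on the log2 scale in replicates 3 and 4 and did not pass the threshold (DESeq2 adjusted p = 0.142). Its dependence of age on set did not pass either (DESeq2 adjusted p = 0.0708), with point estimates that the rise at 12 months was smaller by 2.93 (SE 0.83) and at 18 months smaller by 1.81 (SE 0.83) in replicates 3 and 4. The other 3 genes had adjusted p of at least 0.759 for the set and 0.9999 for the dependence, and Plekhb1 differed between sets by only 0.16 (SE 0.11) on the log2 scale.

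Within replicates 1 and 2 alone the Ntrk2 log2 fold change was 4.21 (SE 0.69) at 12 months and 3.57 (SE 0.70) at 18 months. Within replicates 3 and 4 alone it was 1.27 (SE 0.47) and 1.75 (SE 0.47), and the 12-month value was no longer called. Single libraries also ended its call. The 12-month call was lost without middle-aged replicate 3 (log2 1.87), and the 18-month call without young replicate 2 (1.80) or aged replicate 3 (1.76). Without young replicate 3 and middle-aged replicate 1, the libraries with many additional detected genes, the values were 2.59 and 2.48 and neither was called. For Tmie the 12-month rise was 0.43 (SE 0.21) within replicates 3 and 4, not called there, and 0.83 (SE 0.25) within replicates 1 and 2. Plekhb1 gave 1.33 and 1.12 at 12 months in the 2 sets, and Grid1 gave 1.87 and 2.54. The 12-month adjusted p of Grid1 was not given within replicates 3 and 4, or without middle-aged replicate 1, 2 or 4.

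**Figure D3:**
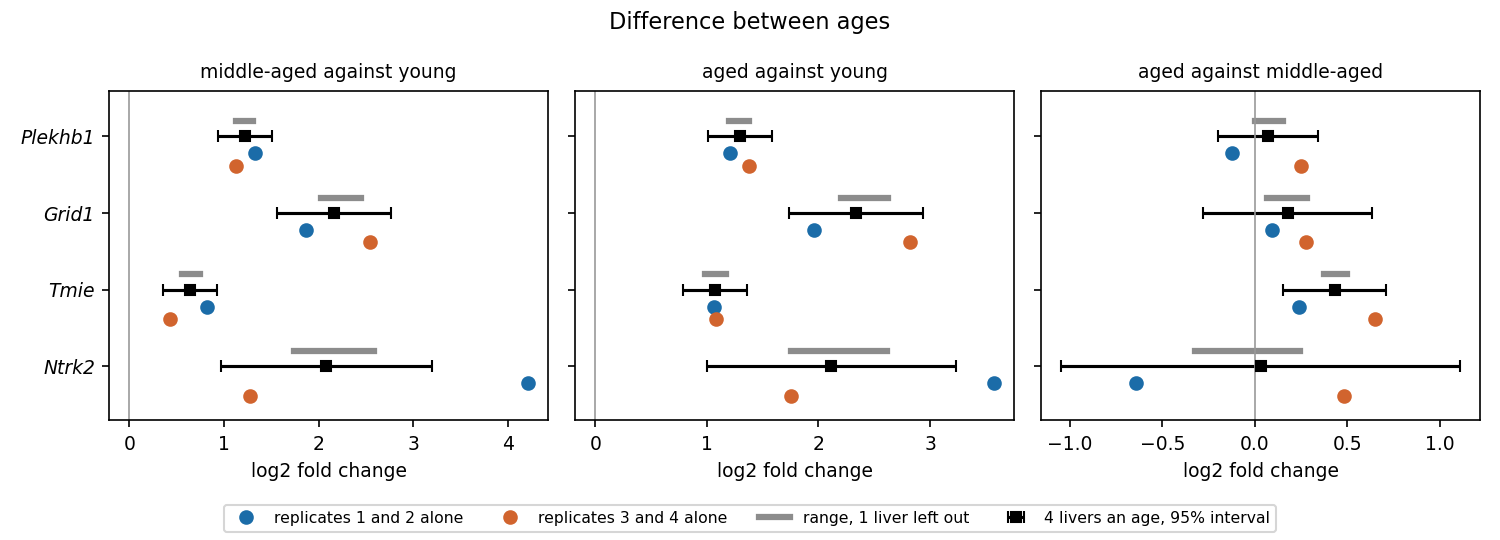
Log2 fold change (horizontal axis) of the 4 genes in each comparison of ages, with squares and 95% intervals from all 12 livers, grey bars for the range when 1 liver is left out, and dots for replicates 1 and 2 alone (blue) or 3 and 4 alone (orange). For Ntrk2 the dots lie at 4.21 and 1.27 at 12 months, outside and near the edge of the interval of 0.96 to 3.20, while for Plekhb1 they lie at 1.33 and 1.12.

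The partners and pathways of these genes mostly showed no called change. Of the other neurotrophins and neurotrophin receptors, 5 of 13 were tested in middle-aged against young livers and Bdnf, a ligand of TrkB, was the only gene called, with means of 10.9 ± 3.84, 28.8 ± 8.46 and 12.6 ± 3.18 at 3, 12 and 18 months (SD, n = 4). Its log2 fold change at 12 months was 1.39 (SE 0.41, DESeq2 adjusted p = 0.0168), and at 18 months it was 0.19 (adjusted p = 0.898). The Bdnf call was lost without young replicate 2 (adjusted p = 0.0813), young replicate 3 (0.0697) or middle-aged replicate 3 (0.0617). Ngfr, the low-affinity neurotrophin receptor p75, had 30.9 ± 7.62, 40.3 ± 7.65 and 50.8 ± 6.89 normalised counts in young, middle-aged and aged livers (SD, n = 4) and was not called (aged against young log2 0.70, DESeq2 adjusted p = 0.106). Sort1, sortilin, which binds proneurotrophins, had 179.0 ± 59.7, 157.3 ± 34.3 and 87.0 ± 49.0 and was not called either (aged against young log2 -1.04, DESeq2 adjusted p = 0.0836). Kidins220, a scaffold that binds Trk receptors, was not called (0.36 and 0.33 on the log2 scale). The list median was 0.37 over 5 tested genes at 12 months and 0.14 over 8 at 18 months, with the median of all genes tested near 0 (0.01 and -0.00 rounded to 2 decimals).

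Of 33 adaptors and kinases of TrkB signalling, 30 to 31 were tested against young livers and none was called in any comparison of ages by DESeq2. Over all tested genes 6.41% and 3.58% were called at 12 and 18 months. Of the adaptors and kinases, 8 and 7 had an unadjusted p under 0.05 at these ages. That share was not counted over all genes, so nothing is read from it. Map2k2 and Akt2, among the most abundant of them, had log2 fold changes of -0.29 and 0.08 at 12 months. The list medians were 0.09 and 0.04. The genes around Grid1 in the synapse were scarce in liver. Its extracellular partners Cbln1, Cbln2 and Cbln4 were at 0 in all 12 livers, Cbln3 averaged 12.2 normalised counts, and the neurexin gene Nrxn2 averaged 22.5. None of the delta receptor partners was called, with 0 of 2 tested genes at an unadjusted p under 0.05 at 12 months. Among 24 other glutamate receptor genes, 2 had a mean of at least 10, Grik5 and Grm8, and neither was called (log2 -0.42 and 0.17 at 12 months).

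The hair cell channel complex to which Tmie belongs was largely missing. Lhfpl5, another subunit of it, was at 0 in all 12 livers, as was Ush1c. Of the other genes in that list, 4 reached a mean of 10, the calcium-binding subunit gene Cib2, the myosin gene Myo7a, Clic5 and Espn, and none was called. Cib2 had 82.2 ± 27.1, 67.7 ± 7.85 and 66.2 ± 29.8 normalised counts in young, middle-aged and aged livers (SD, n = 4). In the pleckstrin homology family of Plekhb1, 24 of 29 other genes were tested at 12 months and Plekhg3, a guanine nucleotide exchange factor, was the only gene called (log2 0.61, SE 0.16, DESeq2 adjusted p = 0.00493), and at 18 months none of 25 was called. The closest relative of Plekhb1, Plekhb2, had log2 fold changes of 0.17 and 0.05 and was not called.

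Markers of nerve, glia and sensory cells were followed because the 4 genes are better known there. In bulk liver, fewer cells of a type and less RNA per cell cannot be told apart. Among 16 neuron markers Dbh, Nefl, Nefm and Th were at 0 in all 12 livers. The summed level of the list was 121.0 to 166.0 normalised counts in young, 155.9 to 269.6 in middle-aged and 140.6 to 237.7 in aged livers. Syt1, a synaptic vesicle calcium sensor, was called at 12 months (log2 0.76, SE 0.20, DESeq2 adjusted p = 0.00745), not at 18 months (0.46, adjusted p = 0.210), and the call was lost without young replicate 3 (0.0584) or middle-aged replicate 2 (0.0558).

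Among 14 Schwann cell and glia markers Mog and the defining factor Sox10 were at 0 in all 12 livers. The summed level was 933.5 to 1216.4 in young, 1427.8 to 1667.2 in middle-aged and 1115.6 to 1364.9 in aged livers, and most of it was Erbb3, a neuregulin receptor that hepatocytes also carry. Erbb3 rose at 12 months (log2 0.51, SE 0.12, DESeq2 adjusted p = 0.000956). It fell from 12 to 18 months (-0.41, adjusted p = 0.0427), a call lost in 12 of 20 alternatives, among them leaving out young replicate 3 or 4, any middle-aged replicate, or aged replicate 3 or 4 (adjusted p 0.0600 to 0.2905). Cdh19, a Schwann cell cadherin, rose at 18 months from 0.637 ± 1.27 to 14.5 ± 5.30 normalised counts (SD, n = 4; DESeq2 adjusted p = 0.00295). Of 12 hair cell and photoreceptor markers 5 were at 0 throughout, including Pou4f3, and 2 reached a mean of 10. Slc17a8, a vesicular glutamate transporter, had 132.1 ± 56.0, 390.2 ± 120.9 and 462.3 ± 231.5 normalised counts in young, middle-aged and aged livers (SD, n = 4). It rose at 12 months (log2 1.56, SE 0.45, DESeq2 adjusted p = 0.0142) and 18 months (1.80, SE 0.44, adjusted p = 0.00411), with the first call lost without young replicate 2 (0.0824), young replicate 3 (0.0697) or middle-aged replicate 2 (0.0870), and the second without aged replicate 3 (0.0517). Gnat1, the rod transducin, rose at 12 months (log2 0.86, SE 0.20, DESeq2 adjusted p = 0.00112) and fell from 12 to 18 months (-0.84, adjusted p = 0.00434), the fall losing its call without middle-aged replicate 1 (0.0527). The part of such cells in the levels of the 4 genes was not tested.

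Stellate cells were followed as the liver cells best known for neurotrophin receptors. Their 11 markers were all detected. None was called at 12 months by DESeq2 (0 of 11 with an unadjusted p under 0.05), with a list median of 0.22. At 18 months Ecm1 alone was called (log2 0.57, SE 0.13, DESeq2 adjusted p = 0.00118), and the list median was 0.11. Lrat and Reln, defining genes of these cells, had log2 fold changes of 0.45 and 0.53 at 12 months and 0.06 and 0.50 at 18 months, none called. The summed level of the list was 3139.4 to 5179.1 in young, 4379.6 to 5577.0 in middle-aged and 4075.5 to 6291.2 in aged livers. Those ranges overlapped between all 3 ages. No tested fibroblast, endothelial, lymphocyte or hepatocyte marker was called in any comparison of ages. Each list held 10 genes. In that order, 9, 10, 5 and 10 were tested at 12 months and 9, 10, 8 and 10 at 18 months. Between 12 and 18 months 7, 9, 3 and 10 were tested. At 12 months 1, 2, 0 and 2 of the genes tested had an unadjusted p under 0.05, and at 18 months 1, 0, 2 and 4. The share of all genes under that threshold was not counted, so nothing is read from these counts or from that of the stellate list. In the cholangiocyte list Tff3 fell at both ages (log2 -3.47 and -4.06) and Sox9 rose at 18 months (0.86, DESeq2 adjusted p = 0.0169), and in the Kupffer cell list Marco rose at 18 months (2.46, adjusted p = 0.0178). The Sox9 call was lost without young replicate 1 (0.0824) or 4 (0.0701), or aged replicate 2 (0.0872), 3 (0.0556) or 4 (0.0720), and the Marco call without young replicate 1 (0.0526), 2 (0.0858) or 3 (0.0829).

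**Figure D4:**
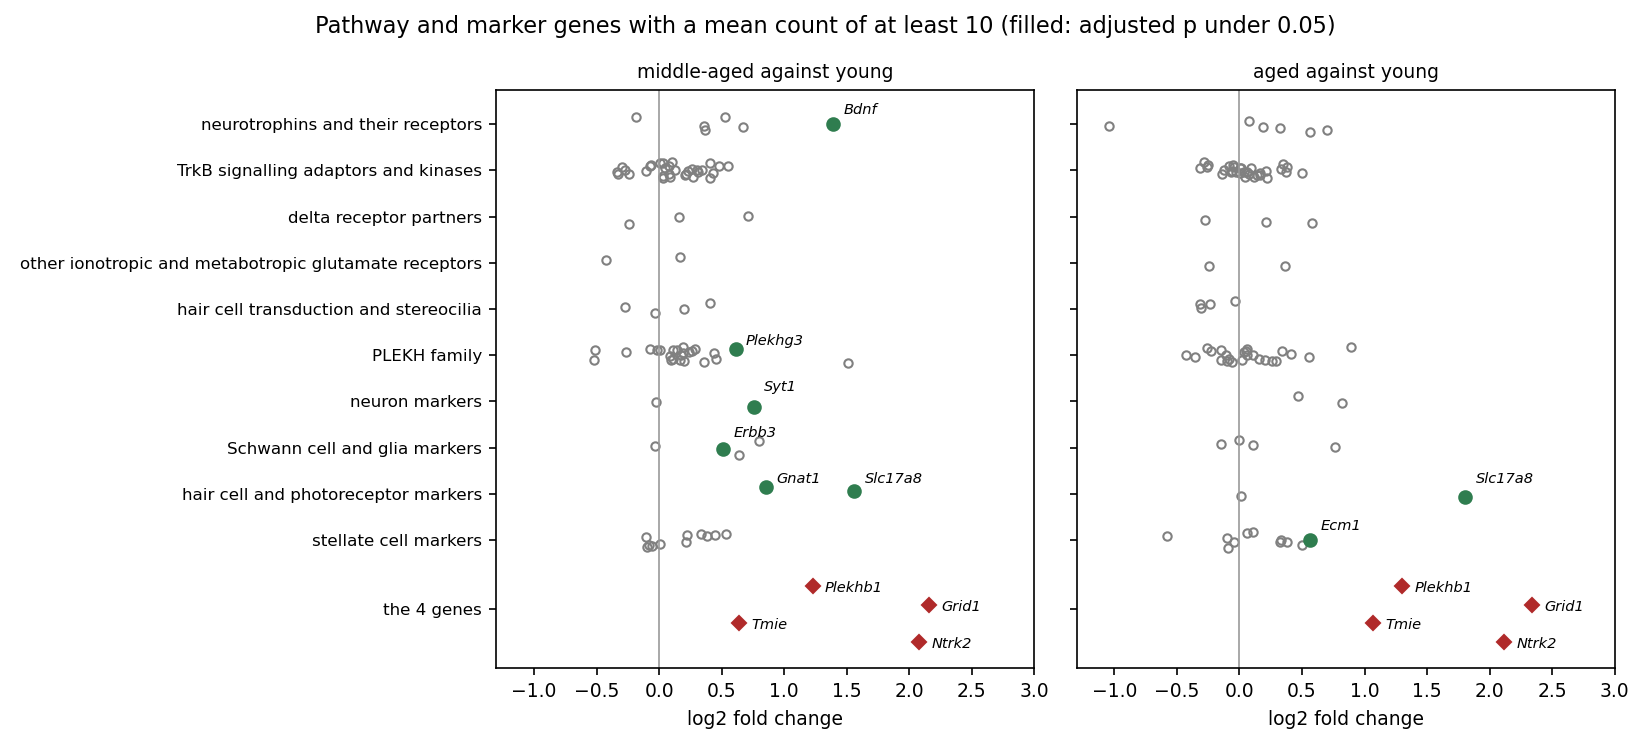
Log2 fold change (horizontal axis) of pathway and marker genes averaging 10 or more normalised counts, by list (vertical axis, 10 of the lists followed), at 12 months and 18 months against young; filled green points had a DESeq2 adjusted p under 0.05 and open points did not. The 4 genes (red diamonds) lie between 0.64 and 2.34, and of the genes drawn for these 10 lists only Slc17a8 is filled in both panels.

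The genes whose profiles were most like those of the 4 were named by Pearson correlation of log2(normalised count + 1) over the 12 livers, among 8887 or 8888 genes with a mean of at least 50. All such genes share the age steps that chose the 4, so the correlations are descriptions. Plekhb1 was most like Maoa, monoamine oxidase A (r = 0.971), Rassf8 (0.969) and Serpinb1a, an inhibitor of neutrophil proteases (0.967). Maoa had 48.7 ± 7.11, 108.1 ± 8.21 and 107.5 ± 27.0 normalised counts in young, middle-aged and aged livers (SD, n = 4), the same step and plateau as Plekhb1 at a lower level. Tmie was also most like Serpinb1a (0.945), followed by Acot4, an acyl-CoA thioesterase (0.923), and Heca (0.922). Serpinb1a stood at 68.6 ± 19.0, 516.1 ± 219.0 and 786.0 ± 310.0 normalised counts, so its step at 12 months was larger than that of either gene. Grid1 was most like Tbc1d24 (0.940), Fam198a (0.939) and Hgfac, the protease that activates hepatocyte growth factor (0.939). For Tbc1d24 the rank correlation was only 0.685.

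Among the genes most like Ntrk2 were Ylpm1 (r = 0.926) and Nfe2l2, the oxidative stress factor NRF2 (0.922). Nfe2l2 held 263.2, 278.9, 363.8 and 419.8 normalised counts in young replicates 1 to 4. It held 401.1, 578.2, 453.0 and 423.9 in middle-aged livers and 432.5, 514.4, 574.2 and 598.9 in aged livers. Like Ntrk2 it was lowest in young replicates 1 and 2. With the age means removed, the genes most like Ntrk2 were Stat5a, a transducer of growth hormone signals (0.924), Ddc, aromatic amino acid decarboxylase (0.917), and Arntl, the clock factor BMAL1 (0.904). Those most like Plekhb1 were then Cep68, Slc12a2 and Adamts1 (0.951 to 0.924), those most like Grid1 were Tsc22d2, Scamp1 and Trak1 (0.907 to 0.899), and those most like Tmie were Tigar, Fam120a and Ncoa5 (0.950 to 0.927). No gene was named for 2 of the 4 within ages. Among young livers Stat5a, Ddc and Arntl were, like Ntrk2, lower in replicates 1 and 2 than in the other replicates. With age and spike-in set in the DESeq2 model, Arntl was called for the set (log2 0.89, SE 0.22, adjusted p = 0.0363), lower in replicates 1 and 2. Stat5a (adjusted p = 0.763) and Ddc (0.522) were not called for it. The part of the spike-in sets in these likenesses was not tested. Between the 4 genes themselves, correlations over 12 livers were 0.656 to 0.938 and within ages -0.674 (Grid1 with Ntrk2) to 0.451 (Plekhb1 with Ntrk2).

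**Figure D5:**
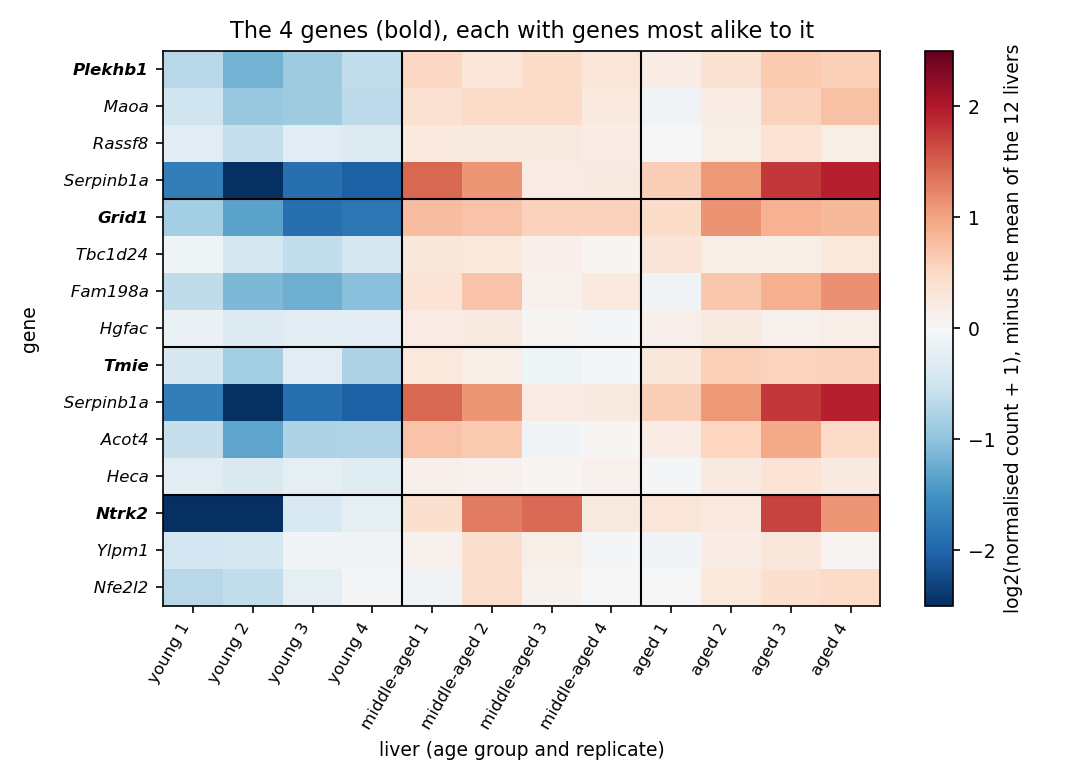
Level of each of the 4 genes (bold) and genes most alike to it in each liver, as log2(normalised count + 1) minus that gene's mean over the 12 livers (colour scale, red above and blue below the mean), with livers grouped by age along the horizontal axis. Values past the ends of the scale take its end colours. Young livers are mostly blue, older livers mostly red, and Ntrk2 is dark blue in young replicates 1 and 2.

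Lists of sex-biased liver genes were also set beside the 4 genes. The summed male-biased list was 186400 to 231860 normalised counts in young, 89671 to 139119 in middle-aged and 30904 to 162298 in aged livers. Of 20 male-biased genes 6 fell at 12 months, where 2.9% of all tested genes were called lower, and 7 fell at 18 months, where 1.71% were; none rose, and Cyp4a12a, a fatty acid hydroxylase, fell by 1.11 (SE 0.20, DESeq2 adjusted p = 5.58e-06) at 12 months. The count at 18 months was 4 without young replicate 1, 3 or 4 or aged replicate 4, and 13 without aged replicate 1. The 24 female-biased genes, of which 11 were tested at 12 months and 13 at 18 months, went both ways. At 18 months 5 rose (Cyp2b9, Cyp4a14, Abcd2, Slc22a27 and Acot3) and Cyp2c40 and Cyp2c69 fell, and at 12 months Acot3 rose and the same pair fell. Of all tested genes 1.87% were called higher and 1.71% lower at 18 months, against 3.51% and 2.9% at 12 months. At 18 months 3 rose without young replicate 2 or 3, 2 without aged replicate 4 and 1 without aged replicate 3, and with any 1 of these 4 libraries left out none fell. The 12-month call of Acot3 was lost without young replicate 2 or 4, and its adjusted p was not given without young replicate 1 or middle-aged replicate 1, 2 or 4. Without middle-aged replicate 1 or 4, only 1 of the pair was called lower at 12 months. Aged replicates 3 and 4 had the lowest male-biased sums (30904 and 41543) and the highest female-biased sums (6065 and 2626, against 747.0 to 1370.9 in the other 10 livers), and among aged livers they also had the highest levels of Ntrk2 and Plekhb1, while Grid1 and Tmie were highest in aged replicate 2. Both sums leaned on few genes. Serpina1e, which was not called, held 905837 raw counts over the 12 livers, and the next male-biased gene, Cyp2d9, held 137053. Among female-biased genes Cyp4a14 (6056) and Fmo2 (3439) held the most, Sult2a1 held 7, and Cyp3a41a and Cyp3a41b were at 0. Aged replicates 3 and 4 also share a spike-in set. The part of this in the levels of the 4 genes was not tested.

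Of the nearest counted genes on either side of each of the 4, Ccser2 was the only gene called in a comparison of ages. Rab6a, 1624 bases from Plekhb1, had log2 fold changes of -0.06 and -0.02 at 12 and 18 months, and Fam168a on the other side had 0.39 and 0.40, none called. Ccser2, 1291557 bases from Grid1, rose at 12 months (log2 0.47, SE 0.14, DESeq2 adjusted p = 0.0157) and not at 18 months (0.28), and the call was lost without young replicate 2 (0.0939), young replicate 3 (0.0619), middle-aged replicate 2 (0.0685) or middle-aged replicate 4 (0.0853). Als2cl overlaps the start of Tmie by 244 bases on the opposite strand and averaged 153.2 normalised counts. It had log2 fold changes of 0.30 and 0.26 and was not called. Whether the counting used strand is not given in the sources used here, so reads in that overlap cannot be assigned to either gene. A930038B10Rik beside Grid1, Pth1r and Rtp3 beside Tmie, and Rmi1 and Agtpbp1 beside Ntrk2 were not called, and the antisense genes inside Ntrk2 never exceeded 3 counts.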

How the data were processed

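RNA-seq had been made from 12 mouse livers, and the authors deposited raw read counts per gene (Ensembl identifiers) with 92 spike-in rows, in whole numbers and without normalisation. The submitters' processing notes name STAR 2.5.2b, SAMtools 1.9, featureCounts, edgeR 3.28.1 and DESeq2 1.26.0, with builds mm10 and GRCm38. The study's methods describe directional single-end libraries for young and old livers alone, and say that its data for 3 ages were an atlas's public RNA-seq; the preparation of these 12 libraries is uncertain. Symbols and positions came from GENCODE M21, which held 53360 of the 53465 identifiers.

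Spike-ins were left out. The 28449 genes with at least 1 count entered a DESeq2 1.42.0 fit in R 4.3.3 over all 12 libraries. Its only term was age; size factors were medians of ratios, independent filtering was at its default, and genes were compared by the Wald test, called at a Benjamini-Hochberg adjusted p under 0.05; an adjusted p that filtering leaves out stays not given. Intervals are 1.96 SE, and intervals and floors cover counting error only where they rest on counts alone. Normalised counts per kb divide by the union of exons. Alternatives were edgeR 4.0.16, limma 3.58.1 voom, other scalings and filters, a replicate block, and fits with libraries left out. After seeing the data, edgeR with a filter of at least 10 counts in 4 samples and the fits with spike-in set terms were added. On simulated counts of 28449 genes for aged against young, DESeq2 recovered 91% of genes changed 2-fold and 100% of those changed 4-fold, with 9.48% of its calls false; unfiltered edgeR made 39.2% false calls and filtered edgeR 2.60%.

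The 4 genes and all gene lists were chosen with earlier results of these data known. Named besides the 4 were the 3 genes most like each over 12 livers and the 3 most like it within ages, the nearest counted neighbours and overlapping genes, and from each list up to 3 of the highest level and up to 4 called; some genes that these rules take are not reported here. Libraries of the same age differed by far more than sampling noise (chi-square of at least 11.2 per gene over 8888 genes).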

Additional observations from a re-analysis of the deposited data

Results flagged for a closer look

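No level of Plekhb1, Grid1, Tmie or Ntrk2 stood apart within an age by Dixon's test. Among 54 groups of 4 livers looked at, 3 held a library that stood apart, and chance gives about 1 in 20, or 2.7, if the groups are independent. The groups share libraries and are not independent, so that number does not bear on the libraries named here. Young replicate 3 had 22284 detected genes against at most 16579 in the other young libraries, and its summed olfactory and vomeronasal receptor genes stood at 129.0 CPM (counts scaled to a common total) against 8.33 to 19.2. Middle-aged replicate 1 had 59.7 CPM of these genes against 15.6 to 16.1 in the other middle-aged libraries. In young replicate 3 Tmie was the highest (310.4) and Grid1 the lowest (8.3) of the young livers. In middle-aged replicate 1 Plekhb1 (425.0), Grid1 (57.6) and Tmie (454.7) were the highest of their age. The values without both libraries are given for Ntrk2 in the account of the spike-in sets.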

How the results depend on the processing

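The 4 genes were higher in both older ages than in young livers under all 25 alternatives, a direction that the choice of genes fixes. Scaling to the spike-ins moved the median of all genes by 1.47, 1.16 and -0.31 (log2) in the comparisons of middle-aged with young, aged with young and aged with middle-aged livers, and total gene counts moved the first and second by 0.12. Relative to that median, spike-in scaling gave 1.15, 2.17, 0.59 and 2.09 at 12 months for Plekhb1, Grid1, Tmie and Ntrk2. As fitted it gave 2.62, 3.64, 2.06 and 3.56 at 12 months, 2.41, 3.56, 2.21 and 3.30 at 18 months, and -0.21 for Plekhb1 and 0.15 for Tmie between them. Within replicates 1 and 2, Grid1 was 1.96 at 18 months and Ntrk2 4.21 and 3.57 at 12 and 18 months; within replicates 3 and 4, Grid1 was 2.54 and 2.82, and Tmie was 0.65 from 12 to 18 months; the cause was not tested. Filtered edgeR (10 counts in 4 samples) and voom did not call Ntrk2 at either age, and the count filter did not at 18 months.

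Counts of genes called (727, 484 and 117 in the same order) were 1154, 880 and 446 with unfiltered edgeR and 281, 170 and 13 with filtered edgeR. Leaving out 1 library gave 345 to 1095, 237 to 1291 and 45 to 198, the highest each time without aged replicate 1 and the lowest without middle-aged replicate 2, aged replicate 3 and middle-aged replicate 4. With the replicate number as a block, 385 and 426 genes were called in the comparisons of middle-aged with young and aged with middle-aged livers. The numbers belong to different animals and did not pair the libraries (correlations of deviations -0.303 to 0.159, and 1 of 12 libraries correlated best with its own number); under the block 8 calls of Bdnf, Ccser2, Erbb3, Heca, Marco, Sox9 and Stat5a were lost (adjusted p 0.0619 to 0.1216). Of 63 calls of other named genes, 33 held in every alternative with a p and none changed sign. Levels near 4 counts, as for Ntrk2 in young livers, limit what this depth can show.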
